A study of Mus musculus with 6 samples.

Results

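Genes of the circadian clock were examined in cortex of 6 male mice of the strain C57BL/6J, which were 15 weeks old and had had a stroke 14 days before. The 10 genes are Per1, Per2, Per3, Dbp, Nr1d1, Nr1d2, Arntl, Ciart, Tef and Bhlhe41. They were chosen by name from a list of clock and clock output genes, out of 24553 genes and unmatched rows in the table. Of the 6 animals, 3 had been given short-chain fatty acids (SCFA), products of fibre fermentation in the gut, in their drinking water, and 3 a control solution matched for salt. This lasted 4 weeks and began when the mice were 6 to 8 weeks old. Both groups had also drunk 4 antibiotics (Ampicillin, Metronidazol, Vancomycin and Neomycin) in 5% sucrose. The sources used here do not give the hour of the day at which each cortex was frozen, the light schedule, the hemisphere or the distance from the lesion. RNA was counted per transcript by sequencing, with each library taken as 1 animal. The question is whether levels of clock genes differ among the libraries and whether SCFA libraries differ from controls.

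The clock of mammalian cells is a transcriptional loop. The proteins of Arntl (also called BMAL1) and of Clock or Npas2 pair up and bind E-boxes, and so switch on the Per and Cry genes, whose proteins return to block the pair. The same pair switches on Nr1d1 and Nr1d2, nuclear receptors that repress Arntl through ROR elements, and Dbp and Tef, which carry the rhythm on to other genes through D-boxes. Genes driven through E-boxes and D-boxes and genes driven through ROR elements therefore peak at opposite times of the day, and in most tissues, cortex included, levels of Dbp, Nr1d1 and Arntl swing strongly over the day.

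The sequences that define these arms were looked up in promoters from RefSeq (build GRCm38.p6, 250 bases before to 50 after each annotated start), which were found for 9 of the 10 genes. No entry matched Per2. An E-box (CACGTG, the same on both strands) was in the windows of Per1, Ciart, Tef and Bhlhe41, 4 of 9, and in 7.15% of all 32851 promoters of that length. The variant CACGTT (either strand) was in that of Nr1d1, and in 4.68% of all promoters. The D-box letters TTATGTAA (either strand) were in that of Per3 at 2 places, of which the first is shown, and in 0.938% of all, and the ROR element core TAGGTCA (either strand) was in that of Arntl, and in 2.61% of all. The cyclic AMP response element TGACGTCA, in 1.79% of all promoters, was in 0 of the 9. The E-box and the variant share 5 letters and were counted as separate motifs. The windows of Dbp and Nr1d2 held no match to the letters searched. The stretches below show the matches in capitals, 5′ to 3′ on the strand of the gene.
Per1 E-box, chr11:69098756-69098815, plus strand: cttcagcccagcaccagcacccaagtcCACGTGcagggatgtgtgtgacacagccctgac
Ciart E-box, chr3:95882312-95882371, minus strand: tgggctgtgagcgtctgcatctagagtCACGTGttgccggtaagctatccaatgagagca
Ciart E-box pair, chr3:95882254-95882313, minus strand: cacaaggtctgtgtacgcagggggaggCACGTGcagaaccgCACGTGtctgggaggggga
Tef E-box of the first start, chr15:81802519-81802578, plus strand: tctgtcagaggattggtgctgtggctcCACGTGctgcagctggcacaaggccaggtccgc
Tef E-box of the second start, chr15:81811249-81811308, plus strand: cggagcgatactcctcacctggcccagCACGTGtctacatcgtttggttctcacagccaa
Bhlhe41 E-box, chr6:145865541-145865600, minus strand: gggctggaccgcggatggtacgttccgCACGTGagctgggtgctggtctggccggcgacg
Nr1d1 E-box variant, chr11:98775378-98775432, minus strand: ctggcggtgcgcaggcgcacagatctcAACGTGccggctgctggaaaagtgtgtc
Per3 D-box, chr4:151044836-151044897, minus strand: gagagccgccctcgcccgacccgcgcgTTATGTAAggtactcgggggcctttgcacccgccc
Arntl ROR element core, chr7:113207530-113207558, plus strand: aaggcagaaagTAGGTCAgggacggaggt

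Total counts ran from 9275252 to 13862756 per library, of which 35.0% to 55.3% fell on a single row that matched no gene. Control 2 had the largest share on that row and the fewest rows with counts, 13600 against 15988 to 16941 in the others. SCFA 2 held far more RNA of striatal neurons, which lie beneath the cortex: the 9 marker genes of that list summed to 398 CPM (counts per 1000000 counts of the scaled library size) in SCFA 2 and to 71.5 to 134 CPM in the other 5 libraries. Markers of excitatory neurons summed to 2708 to 3554 CPM in controls and 3377 to 3898 CPM with SCFA. Those of inhibitory neurons summed to 313 to 387 and 342 to 437 CPM, of oligodendrocytes to 134 to 181 and 138 to 211 CPM, and of endothelium to 75.2 to 87.7 and 98.9 to 142 CPM. Exocrine pancreas genes, which do not belong to brain, summed to 34.7 to 364 CPM in controls and 0.746 to 1.88 CPM with SCFA. In the lists of cell markers, Vip, Pecam1 and Tek were among the genes at 0 counts in every library.

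Counts of clock genes tended to be lower where the table held several transcript rows for the gene. The 5 members with 1 row (Per2, Dbp, Nr1d1, Nr1d2 and Ciart) had 730 to 7097 counts over the 6 libraries, whereas the 5 members with 2 or more rows (Per1, Per3, Arntl, Tef and Bhlhe41) had 12 to 987. In a list of 27 other clock genes, all 14 with 1 row passed the count filter of the test, and of the 13 with more rows 6 passed and 4 (Arntl2, Btrc, Fbxw11 and Timeless) stood at 0. The ranges overlapped: Rorb, with 3 rows, had 1621 counts, and Nfil3 and Fbxl21, with 1 row, had 176 and 295. The sources used here do not say how reads shared by transcripts of a gene were counted, so low counts of these genes were not read as low expression. Its part in these counts was not tested.

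**Figure D1:**
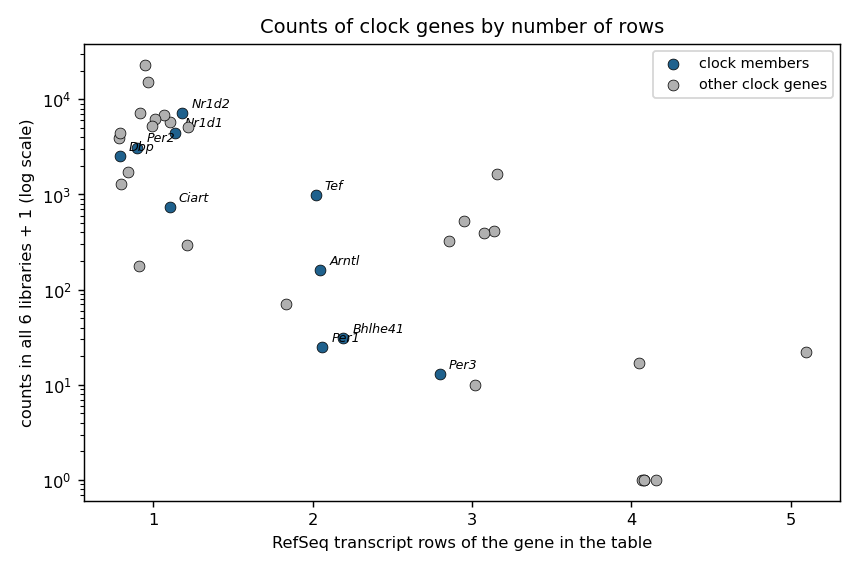
Counts of clock genes summed over the 6 libraries (vertical axis, log scale, 1 added) against the number of RefSeq transcript rows the table holds for the gene (horizontal axis, points spread sideways for sight). Blue points are the 10 named clock genes and grey points the 27 other clock genes; no gene with a single row fell below 176 counts, while 4 genes with several rows stood at 0.

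Per1, a light- and stress-responsive repressor of the loop, had 0, 1 and 7 counts in controls 1, 2 and 3 and 2, 8 and 6 counts in the SCFA libraries 1, 2 and 3. Per3, its relative with a weaker role in timekeeping, had 1, 0 and 8 counts in controls and 0, 3 and 0 with SCFA. Bhlhe41 (DEC2), a repressor that competes for E-boxes, had 2, 0 and 10 counts in controls and 4, 6 and 8 with SCFA. The groups overlapped for each of these genes, and all 3 fell under the count filter and were not tested. The exact 95% Poisson interval of a count of 0 runs up to 3.69 counts, and 3 counts are 0.207 to 0.346 CPM in these libraries.

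Of the 7 members that passed the filter (Per2, Dbp, Nr1d1, Nr1d2, Arntl, Ciart and Tef), 0 were higher and 0 lower with SCFA at a Benjamini-Hochberg adjusted p under 0.05 (edgeR quasi-likelihood test over 11969 genes). The share called over all genes was 0.00835% higher and 0.0752% lower. Of the 9 genes called lower, 8 were on the list of exocrine pancreas genes, which do not belong to brain. DESeq2 and limma-voom also called 0 of the 7. At an unadjusted p under 0.05, 1 member was higher (Dbp) and 0 lower, where 2.97% of all genes were higher and 2.79% lower. The median log2 fold change was 0.28 over the 7 members and 0.01 over all genes tested. Of the 7, 4 lay above 0 (Dbp, Tef, Arntl and Per2) and 3 below (Nr1d2, Ciart and Nr1d1), while 50.9% of all genes lay above 0.

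**Figure D2:**
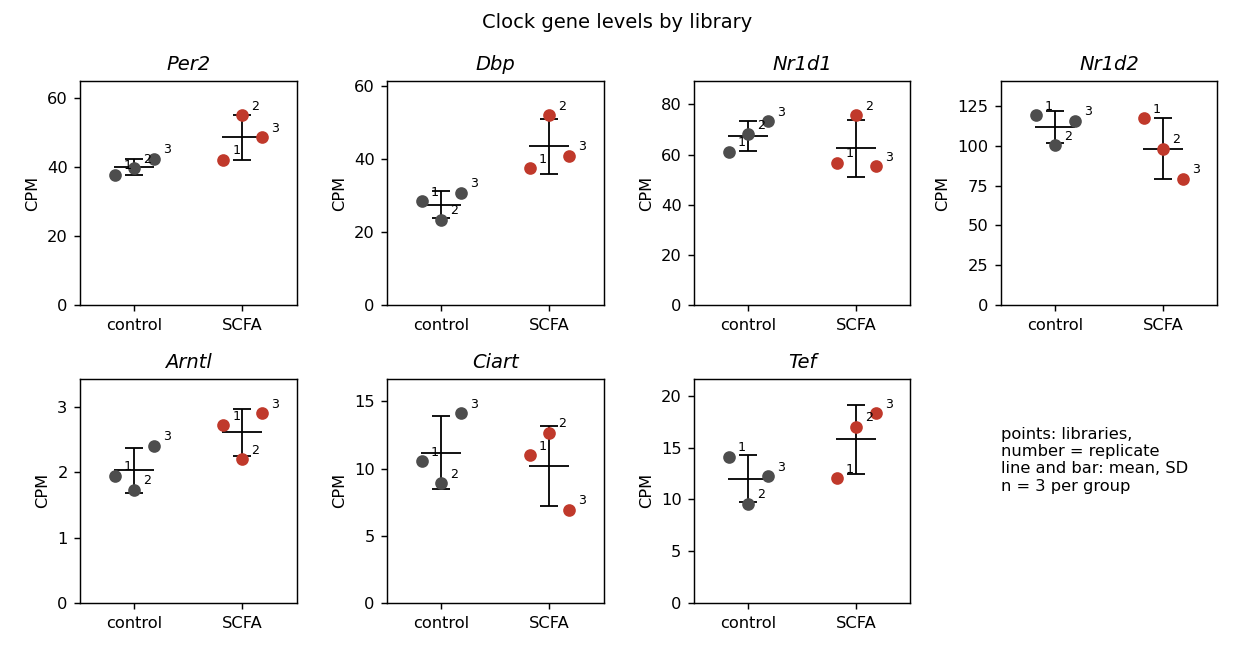
Levels of the 7 tested clock genes in CPM (vertical axes, starting at 0) in the control and SCFA groups. Points are libraries with their replicate number, and the line and bar give the mean and SD of 3 libraries; Dbp is the gene whose SCFA points, 37.5 to 51.9 CPM, all lie above its controls, 23.3 to 30.8 CPM.

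Dbp, the D-box activator and among the clock outputs with the widest daily swing, had the largest log2 fold change of the 7 members. It lies on chromosome 7 from 45705100 to 45710203 (GRCm38.p6, as are the coordinates below) and overlaps the neighbouring gene Sphk2, which had 98 counts in all, over 741 bases. Dbp measured 28.5, 23.3 and 30.8 CPM in controls 1, 2 and 3 and 37.5, 51.9 and 40.9 CPM in the SCFA libraries 1, 2 and 3. Every SCFA library lay above every control, with SCFA 2 highest and control 2 lowest. The group means were 27.5 ± 3.82 and 43.4 ± 7.56 CPM (SD, n = 3 each). The log2 fold change was 0.66 (SE 0.209), with an unadjusted p of 0.00754 and an adjusted p of 0.864 in edgeR. Groups that did not overlap in this direction were found for 6.42% of all genes, and for 1 of the 7 members. The groups stayed apart under all 5 scalings computed, total counts among them. Without control 2 and SCFA 2, the libraries that stood apart, the log2 fold change was 0.40, lower than the 0.66 of all 6 by over 1.5 times.

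Tef, a close relative of Dbp that binds the same D-boxes, lies on chromosome 15 from 81802673 to 81826863. It measured 14.1, 9.58 and 12.2 CPM in controls and 12.03, 17.0 and 18.3 CPM with SCFA. SCFA 2 and SCFA 3 lay above the controls and SCFA 1 among them, and the log2 fold change was 0.40 (SE 0.292, edgeR adjusted p = 0.902). Hlf completes this family of D-box activators, and it came from the list of other clock genes. Hlf measured 201, 155 and 222 CPM in controls and 231, 267 and 224 CPM with SCFA. Its groups did not overlap, though control 3 and SCFA 3 were close, and they did overlap when scaled by total counts. The log2 fold change was 0.32 (SE 0.157, edgeR adjusted p = 0.88). Nfil3 encodes the repressor that opposes this family at D-boxes. It had 25, 0 and 22 counts in controls and 41, 55 and 33 with SCFA. Its log2 fold change was 1.29 with an SE of 0.953. Without the 0 of control 2 its groups would still not overlap, at 2.03 and 2.21 CPM in controls 1 and 3 against 2.46 to 4.29 CPM with SCFA.

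Per2, the Period gene most needed for a stable rhythm, lies on chromosome 1 from 91415977 to 91459351. It measured 37.7, 39.7 and 42.4 CPM in controls and 42.1, 55.0 and 48.5 CPM with SCFA. SCFA 1 lay just under control 3, so the groups overlapped, while under total-count scaling they did not. The log2 fold change was 0.28 (SE 0.181, edgeR adjusted p = 0.896). Ciart (also called Chrono), which blocks the Arntl protein, lies on chromosome 3 from 95878500 to 95882257, and a noncoding gene, C920021L13Rik, covers all of it. Ciart measured 10.5, 8.89 and 14.1 CPM in controls and 10.99, 12.7 and 6.93 CPM with SCFA. Its highest library was control 3 and its lowest SCFA 3, and its log2 fold change of -0.13 (SE 0.343) changed sign without either of them (0.07 without control 3 and 0.08 without SCFA 3) and with total-count scaling.

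The cryptochromes block the activator pair together with the Period proteins. Cry1 measured 17.3, 16.4 and 18.2 CPM in controls and 22.1, 24.5 and 13.5 CPM with SCFA, so the SCFA libraries lay on both sides of the controls. Cry2 measured 73.6 to 90.5 CPM in controls and 76.6 to 96.4 CPM with SCFA. Their log2 fold changes were 0.21 (SE 0.271) and 0.06 (SE 0.160). Bhlhe40, the relative of Bhlhe41 with a single row in the table, was highest in SCFA 2 at 88.2 CPM and measured 52.2 to 67.6 CPM in the other 5 libraries (log2 fold change 0.17, SE 0.207).

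Nr1d1 and Nr1d2 encode REV-ERB alpha and beta, the repressors of Arntl. Nr1d1 lies on chromosome 11 from 98767932 to 98775377, and its last 1075 bases overlap Thra, a thyroid hormone receptor gene with 4625 counts here, so that without a stated strand setting reads from this stretch cannot be told apart. Nr1d1 measured 61.1, 68.1 and 73.2 CPM in controls and 56.7, 75.7 and 55.3 CPM with SCFA. SCFA 2 was the highest of the 6 and the other SCFA libraries were the lowest. Its log2 fold change was -0.11 (SE 0.177, edgeR adjusted p = 0.96), and 0.10 with total-count scaling. Nr1d2, on chromosome 14 from 18204056 to 18239106, measured 119, 100 and 116 CPM in controls and 117, 98.1 and 79.2 CPM with SCFA. SCFA 3 was lowest, and the log2 fold change was -0.19 (SE 0.169, edgeR adjusted p = 0.917). The ROR receptors compete with them for the same elements. Rorb, which in cortex also marks layer IV neurons, measured 18.2, 15.4 and 22.1 CPM in controls and 26.5, 31.6 and 24.8 CPM with SCFA, without overlap (log2 fold change 0.58, SE 0.236, edgeR adjusted p = 0.864). Rora had 42 to 70 counts per library and a log2 fold change of -0.02 (SE 0.470).

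Arntl, the activator at the centre of the loop, lies on chromosome 7 from 113178471 to 113314126. It had 24, 15 and 24 counts in controls and 26, 32 and 39 with SCFA. The exact 95% Poisson interval of the 15 counts in control 2 runs from 8.4 to 24.7, and covers counting error only. In CPM, Arntl measured 1.95, 1.73 and 2.41 in controls and 2.72, 2.20 and 2.91 with SCFA. SCFA 2 lay between control 1 and control 3, so the groups overlapped, while under total-count scaling they did not. The log2 fold change was 0.36 with an SE of 0.681 (edgeR adjusted p = 0.961). Its partners Npas2 and Clock had log2 fold changes of -0.09 (SE 0.175) and -0.01 (SE 0.452). Npas2 measured 55.1 to 60.9 CPM in controls and 45.7 to 62.5 CPM with SCFA, lowest in SCFA 2.

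**Figure D3:**
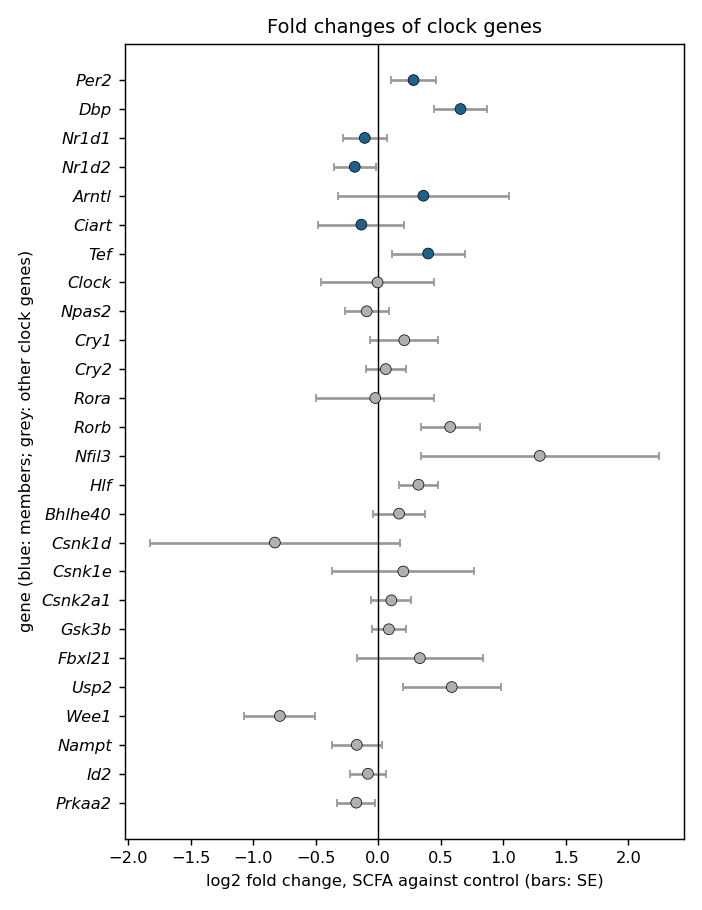
Log2 fold change of SCFA against control (horizontal axis) with its SE for each tested clock gene (rows). Blue points are the 7 tested members and grey points 19 of the 20 other clock genes tested; Dbp lies at 0.66, and none of the genes shown passed the adjusted threshold.

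The other clock genes gave no call either. Of the 27 listed, 20 were tested, with 0 higher and 0 lower (edgeR, adjusted p under 0.05). At an unadjusted p under 0.05 (edgeR), 1 was higher (Rorb) and 1 lower (Wee1), where 2.97% of all genes were higher and 2.79% lower. The median log2 fold change was 0.07. Wee1, a cell-cycle kinase gene with E-boxes, measured 30.2, 46.1 and 22.8 CPM in controls and 14.6, 19.1 and 23.6 CPM with SCFA (log2 fold change -0.79, SE 0.284). Its groups overlapped, and control 2 was highest. Usp2, a rhythmic ubiquitin protease gene, had a log2 fold change of 0.59 (SE 0.390). Over both lists 27 genes were tested, of which 4 (Dbp, Hlf, Nfil3 and Rorb) lay higher in every SCFA library than in every control and 0 lower, where 6.42% of all genes were higher and 5.74% lower in this sense.

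Levels of the 6 tested genes of the E-box and D-box arm (Per2, Dbp, Nr1d1, Nr1d2, Ciart and Tef) were then compared among libraries. Without a sampling hour for reference, these levels and the arm differences below rank libraries against each other but cannot place them along the clock. The 6 genes did not shift together between the groups, as 3 had a log2 fold change above 0 and 3 below. In SCFA 2, 5 of the 6 lay above their median over the 6 libraries, in control 3 4, in SCFA 1 and SCFA 3 3 each, in control 1 2 and in control 2 1. Their mean deviation in log2 CPM was -0.05, -0.23 and 0.07 in the controls and -0.01, 0.28 and -0.06 in the SCFA libraries, in order of number. The arm as a whole was thus highest in SCFA 2 and lowest in control 2, and the other 4 libraries lay between -0.06 and 0.07. SCFA 2 and control 2 also had the lowest and highest share of counts on the unmatched row, 35.0% and 55.3%. Their scaling factors, 1.216 and 0.7609, were the largest and smallest. The part of library makeup in the arm values was not tested. The highest library exceeded the lowest 1.46-fold for Per2, 2.23-fold for Dbp, 1.37-fold for Nr1d1, 1.504-fold for Nr1d2, 2.04-fold for Ciart and 1.91-fold for Tef.

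The opposite arm was taken as Arntl, Npas2, Clock, Nfil3 and Cry1. Of these, the promoter windows of Arntl and Nfil3 held the ROR element core, those of Npas2 and Clock held none of the letters searched, and that of Cry1 held an E-box and the E-box variant but no ROR element core, so that Cry1 is no clean member of this arm. Its mean deviation was 0.01, -0.79 and 0.13 in controls and 0.27, 0.13 and 0.25 with SCFA, and the low value of control 2 rested on the 0 counts of Nfil3. The difference between the arms, the first minus the second, was -0.06, 0.56 and -0.06 in controls and -0.28, 0.14 and -0.31 with SCFA, which puts control 2 furthest to the E-box and D-box side. Without Nfil3, an alternative chosen after seeing the data, the mean deviation of the opposite arm was -0.05, -0.14 and 0.08 in controls and 0.03, -0.10 and 0.19 with SCFA. The difference between the arms was then 0.00, -0.10 and -0.01 in controls and -0.03, 0.38 and -0.25 with SCFA. With Arntl alone as the opposite arm it was 0.17, 0.14 and 0.00 in controls and -0.24, 0.33 and -0.39 with SCFA. SCFA 3 was lowest in all 3 versions, while the library furthest to the E-box and D-box side was control 2 with Nfil3 and SCFA 2 without it or with Arntl alone. With Nfil3 the group difference of this score was -0.29, SCFA minus control (SD 0.358 in controls and 0.253 with SCFA), smaller than the SD in controls, and without Nfil3 it was 0.07. These genes were chosen with earlier results known, so the score was not tested.

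**Figure D4:**
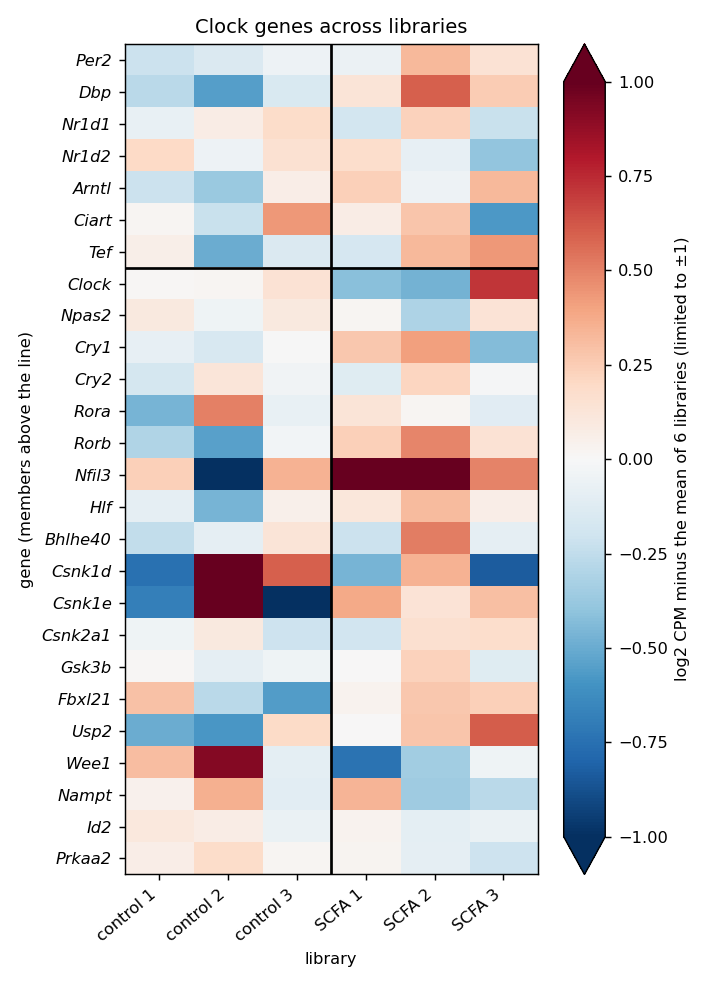
Log2 CPM of each tested clock gene (rows) minus its mean over the 6 libraries (columns), with color limited to ±1; the 7 members stand above the horizontal line and 19 of the 20 other clock genes tested below. Dbp is blue in the 3 controls and red in the 3 SCFA libraries, and Nr1d2 and Ciart are lowest in SCFA 3.

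The spread of each tested member but Nr1d2 among animals of a group lay below the median of genes near its own level. Arntl lay furthest below, with an SD of 0.21 against a median of 0.75. The SD of log2 CPM around the group means was 0.15 for Per2, 0.20 for Nr1d1, 0.21 for Arntl, 0.22 for Dbp and for Nr1d2, 0.30 for Tef and 0.39 for Ciart. Of all tested genes, between 9.23% (Per2) and 51.0% (Ciart) had a smaller SD. Among genes within 0.5 log2 CPM of its own level, 36.5% had a smaller SD than Dbp and 64.1% a smaller SD than Nr1d2, the highest share of the 7, and 1.2% a smaller SD than Arntl, the lowest.

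Ratios between the raw counts of 2 genes of the same library do not depend on how libraries are scaled. The log2 ratios and the overlap of groups were taken from log2 CPM with a prior count of 2. They can therefore depend on scaling where counts are low. Of the 21 ratios among the 7 tested members, 6 did not overlap between the groups, and 4 of these were among the 6 that hold Dbp. The share over all pairs of genes was not computed, so the count of 6 has no background. Dbp is also the member whose own groups did not overlap. The raw counts of Dbp divided by those of Nr1d1 gave 0.466, 0.342 and 0.42 in controls and 0.66, 0.686 and 0.738 with SCFA. On the log2 scale this ratio was -1.29 ± 0.23 in controls and -0.53 ± 0.08 with SCFA (SD, n = 3 each), a difference of 0.77. Every SCFA library lay above every control by more than the spread within either group, and the exact two-sided permutation test gave p = 0.1, the smallest that 3 against 3 libraries allow. A ratio to Nr1d1 that was higher in every SCFA library was found for 9.28% of all genes.

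Dbp over Nr1d2 was 0.239, 0.233 and 0.266 in controls and 0.32, 0.529 and 0.516 with SCFA, and Dbp over Ciart was 2.70, 2.62 and 2.18 in controls and 3.41, 4.10 and 5.89 with SCFA. The share of all genes with such a ratio was 10.4% against Nr1d2 and 6.52% against Ciart. Per2 over Nr1d1 was also higher in every SCFA library (log2 -0.75 ± 0.05 in controls and -0.36 ± 0.15 with SCFA), while Per2 over Dbp was lower in every one (0.54 ± 0.19 and 0.17 ± 0.08), as Dbp over Per2 was higher, which 1.65% of all genes shared. Nr1d2 over Arntl was lower in every SCFA library (5.67 ± 0.17 and 5.13 ± 0.39), and Arntl over Nr1d2 had the background of 10.4% given above. The closest libraries were control 3 at 5.488 and SCFA 2 at 5.368, where Arntl had 24 and 32 counts. The exact 95% Poisson intervals of these counts, 15.4 to 35.7 and 21.9 to 45.2, overlap. Dbp over Arntl overlapped, at 14.6, 13.5 and 12.8 in controls and 13.8, 23.6 and 14.1 with SCFA. The other ratios within the E-box and D-box arm overlapped as well. Their log2 differences, SCFA minus control, were 0.47 for Per2 over Nr1d2, 0.42 for Per2 over Ciart, -0.12 for Per2 over Tef and 0.26 for Dbp over Tef. They were 0.08 for Nr1d1 over Nr1d2, 0.03 for Nr1d1 over Ciart, -0.05 for Nr1d2 over Ciart, -0.51 for Nr1d1 over Tef, -0.59 for Nr1d2 over Tef and -0.54 for Ciart over Tef. In the SCFA libraries, Dbp stood higher against both REV-ERB genes without overlap, and Per2 against Nr1d1 but not against Nr1d2. The shares of all genes given above show that ratios to the REV-ERB genes of this kind were not rare. These ratios share genes and are not independent of each other, and the p of each non-overlapping ratio is the same 0.1.

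**Figure D5:**
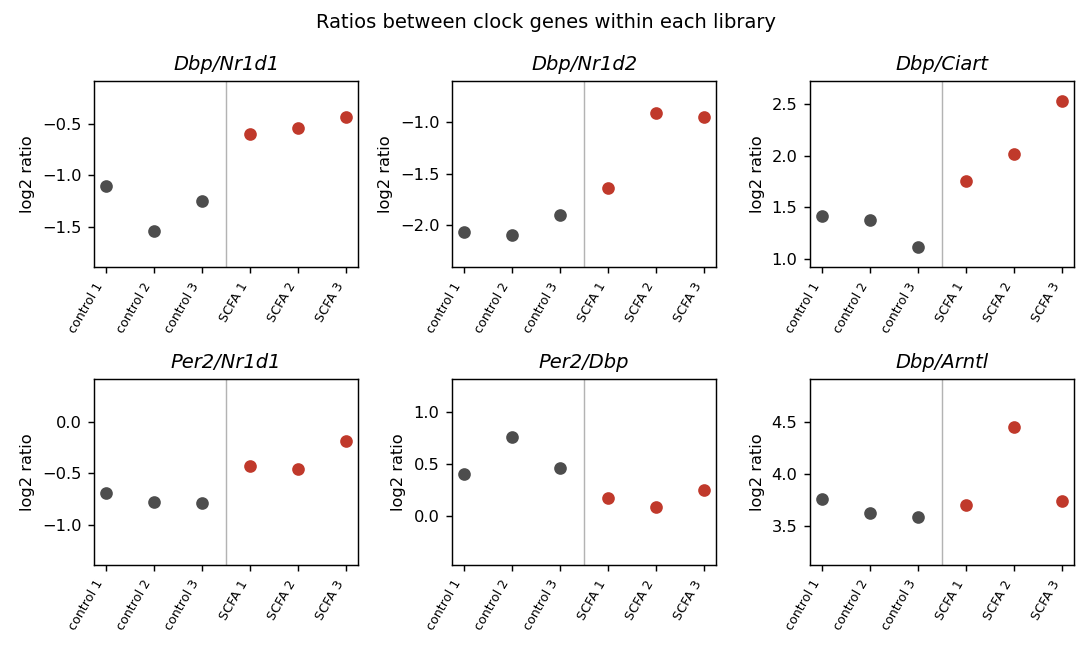
Log2 ratio of 2 clock genes within each library (vertical axes, all spanning the same range) for controls (grey) and SCFA libraries (red). In the panels of Dbp over Nr1d1, Nr1d2 and Ciart and of Per2 over Nr1d1 the SCFA points all lie above the controls, in Per2 over Dbp below them, and in Dbp over Arntl they overlap.

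Genes whose profile over the 6 libraries was closest to Dbp were sought among 10046 genes whose mean log2 CPM was 1 or more, by the root mean square difference of centred log2 CPM. The closest were Ntrk2, the receptor gene of the neurotrophin BDNF (0.06), Elovl5, a fatty acid elongase gene (0.08), the phospholipid synthesis gene Cdipt (0.08), Laptm4b (0.09), Rorb and Lzts1 (0.095 each). None passed the gene test (edgeR adjusted p from 0.83 to 0.864). The closest to its mirror image were Fos (0.05), H2ac7 (0.06), Zfp994 (0.07) and Hdac9 (0.07). Of the other D-box activators, Hlf stood at 0.18 from Dbp and ranked 121 of 11968 genes, and Tef at 0.23 (rank 336). Per2 stood at 0.22 (rank 334), and Arntl, of the opposite arm, at 0.29 (rank 1053). Nr1d1 ranked 3271, Ciart 4683 and Nr1d2 5155. Of the rest of the opposite arm, Cry1 ranked 2008, Npas2 4606, Clock 7245 and Nfil3 11354. The ranks of the arms thus overlapped, with Per2 and Tef nearest to Dbp and Clock and Nfil3 furthest.

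Period genes also answer to glucocorticoids and to neuronal activity, so these responses are given beside them. Of 13 tested glucocorticoid response genes 0 were called, with a median log2 fold change of 0.22. At an unadjusted p under 0.05 (edgeR) 2 were higher and 0 lower, where 2.97% of all genes were higher and 2.79% lower. Mt1 measured 277, 238 and 331 CPM in controls and 399, 399 and 454 CPM with SCFA (log2 fold change 0.57, SE 0.148, edgeR adjusted p = 0.693), and its neighbour Mt2, also a metallothionein gene, had a log2 fold change of 0.65. Sult1a1, which encodes a sulfotransferase, was at -0.51 (SE 0.248), and Pdk4, at 0 counts in control 2, varied most over the libraries. Fkbp5, a direct glucocorticoid receptor target, lay lower in every SCFA library, at 34.6 to 41.05 CPM against 44.3 to 50.6 CPM. Tsc22d3, which encodes the glucocorticoid-induced protein GILZ, lay higher in every SCFA library, at 18.8 to 24.5 CPM against 15.35 to 17.25 CPM. Both are given here after their values were seen. Over this list 2 genes lay higher and 2 lower without overlap, where 6.42% of all genes lay higher and 5.74% lower. Of 12 tested immediate early genes 0 were called, with a median of -0.16. At an unadjusted p under 0.05 (edgeR) 3 were lower and 0 higher, beside the same shares of 2.79% and 2.97%. Dusp1 measured 16.6, 23.9 and 18.9 CPM in controls and 11.6, 12.7 and 10.5 CPM with SCFA (log2 fold change -0.77, SE 0.267, edgeR adjusted p = 0.864). Nr4a1 was at -0.49 (SE 0.213) and Npas4, which ran from 2.30 to 27.4 CPM over the libraries, at -1.27 (SE 0.558). Dusp1, Nr4a1 and Fos lay lower in every SCFA library, and Npas4 overlapped. Fos measured 13.6 to 18.6 CPM in controls and 7.99 to 11.2 CPM with SCFA. Over this list 3 genes lay lower and 0 higher without overlap, beside 5.74% and 6.42% of all genes.

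Markers of most of the brain cell types listed were also highest in the library in which Dbp was highest. Markers of astrocytes (7 genes, 0 of them at 0 counts) summed to 660 to 771 CPM in controls and 943 to 1479 CPM with SCFA, and those of microglia (8 genes, 0 at 0 counts) to 290 to 418 and 489 to 792 CPM. In mean centred log2 CPM, astrocyte markers scored -0.48, -0.22 and -0.07 in controls and -0.15, 0.67 and 0.25 with SCFA. Microglia markers scored -0.555, -0.134 and -0.435 in controls and 0.17, 0.765 and 0.188 with SCFA. Control 2, the lowest library for Dbp, was thus the highest control for microglia. In summed CPM, SCFA 2 was highest for both lists and for striatal, inhibitory neuron, oligodendrocyte and endothelial markers, as it was for Dbp. Excitatory neuron markers were highest in SCFA 3. Without SCFA 2 the log2 fold change of Dbp was 0.51, with an unadjusted p of 0.0381 and an adjusted p of 0.9996 in edgeR. In whole cortex, more cells of a type and more RNA per cell cannot be told apart. The part of cell makeup in the values of Dbp was not tested.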

How the data were processed

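The authors deposited unnormalized counts per RefSeq transcript, 34755 rows for 6 libraries. The tools were featureCounts and CASAVA 1.8.2 on build mm10, per the submitters' processing notes; the sources used here do not give the aligner, the strand setting or the handling of shared reads. RNA came from snap-frozen cortex and went into an Ovation Human FFPE RNA-Seq library kit, per the labels' protocols. Rows were matched to symbols through RefSeq (GRCm38.p6, 99.05% of rows) and summed. The row with the most counts (35.0% to 55.3%) matched no gene and stayed in the library sizes; an alternative removed it with structural RNA.

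The test was run in edgeR 4.0.16 (R 4.3.3): filterByExpr (minimum count 10, minimum total 15), TMM, quasi-likelihood F test, no covariate, two-sided, Benjamini-Hochberg over 11969 genes, threshold 0.05. CPM is counts per 1000000 of the TMM-scaled library size; log2 CPM has a prior count of 2. The SE is the log2 fold change divided by the square root of F. Each library was read as 1 animal, since the design text counts 3 mice in a group; if any share an animal, p-values measure technical spread only. The script was tested on simulated data. Alternatives used other scalings and filters, DESeq2 1.42.0, limma-voom (limma 3.58.1), the replicate block, unsummed rows and fewer libraries.

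The members and lists were chosen with earlier results of these data known. The members were named whatever their value. Of other clock genes, the ROR-element arm, Cry2, Hlf, Bhlhe40, Rora and Rorb were named and the 3 others with the smallest p, of which 1 is not reported here. Of the glucocorticoid and immediate early lists, the 3 with the smallest p and the widest range were named. Profiles nearest to Dbp (6) and to its mirror image (4) were added. The lists of inhibitory neurons, oligodendrocytes, endothelium and exocrine pancreas served as marker checks.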

Additional observations from a re-analysis of the deposited data

How the results depend on the processing

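No clock member was called, higher or lower, in the 16 alternatives that gave a count of calls (edgeR, DESeq2 or limma-voom), with Dbp at an unadjusted p under 0.05 in all but the comparison without control 2 and SCFA 2 together. Over 17 alternatives, the log2 fold change of Dbp ran from 0.40 to 0.83, with an adjusted p of 0.355 or more, that of Per2 from 0.18 to 0.47, and those of Tef, Arntl and Nr1d2 kept their sign. With total counts Nr1d1 turned to 0.097 and Ciart to 0.055; under that scaling the median of all genes was 0.18 in place of 0.009. Leaving out libraries moved Ciart between -0.467 (without control 2 and SCFA 2) and 0.081 (without SCFA 3), and to 0.071 without control 3. The arm score difference of -0.295 became 0.069 without Nfil3; the other alternatives gave -0.44 to -0.088, the latter without control 2.

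Over all genes, 1 was higher and 9 lower, and 8 of the 9 were on the list of exocrine pancreas genes. Without a filter 30 were higher and 25 lower. DESeq2 gave 14 higher and 17 lower. Limma-voom called 0 in either direction, where 421 and 384 had an unadjusted p under 0.05. In edgeR, with 1 library left out, the higher genes numbered 0 to 8 and the lower ones 0 to 13 (164 to 477 and 218 to 382 at an unadjusted p under 0.05), and leaving out control 2 and SCFA 2 gave 14 higher. The replicate block gave 10 higher and 12 lower, with Dbp at 0.65 (adjusted p = 0.85). Deviations of libraries with the same number were uncorrelated (-0.00206, 0.0101 and -0.00525), so no pairing was seen. The causes were not tested. Per1, Per3 and Bhlhe41 had too few counts to be tested. The part of depth or of the handling of shared reads in this was not tested.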
